A study of Mus musculus with 8 samples.

Results

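The 54 genes described here were those whose platform gene symbol is Rab followed by a number and at most a letter and a digit, with Rab11a, Rab11b and Rab25, which make up the Rab11 class, left out. They were 54 of the 16593 genes named on the array and were read by 84 of its 25697 probes. Rab GTPases are small switches on the faces of membranes: exchange factors load them with GTP, the loaded form recruits effectors that tether, move or fuse vesicles, and GTPase-activating proteins return them to the inactive form, which a carrier protein takes off the membrane. Each Rab works at its own set of membranes along the secretory and endocytic routes, and epithelial cells use several of them to sort proteins to the apical or basolateral side. The samples were 4 GRHL2 knockout clones and 4 GRHL2 wildtype subclones of V6.5, a mouse embryonic stem cell line, with 1 bead array for each. GRHL2 is a grainyhead-like transcription factor of epithelia, and every culture of both groups had spent 3 days without LIF and without the 2i inhibitors, which act on GSK3 and MEK, to leave the naive state and become epiblast-like. The labels do not say how the clones were made or give a parent for each, so the p-values measure the spread between arrays of separate clones.

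Levels are given as log2 intensities after background correction and quantile normalization. A change is the knockout level minus the wildtype level in log2 units, and the threshold is an adjusted p under 0.05 from limma over 8830 genes. Between 12414 and 13250 probes were detected on each array. Mean intensity before normalization was 508 ± 51.5 in knockout and 703 ± 32.4 in wildtype (SD, n = 4 each; exact two-sided permutation p = 0.0286, the smallest that 70 assignments allow), so each change below is relative to an array of equal brightness. Grhl2 itself was 7.71 ± 0.43 in knockout and 8.84 ± 0.60 in wildtype (SD, n = 4 each; limma adjusted p = 0.0369), and this call was lost without knockout replicate 2, 3 or 4 or wildtype replicate 1, 2 or 4 (adjusted p up to 0.0835). A pair of arrays stood apart by chromosome from the rest of their group. The shifts were measured within each group, so they do not show whether the named array or the rest of its group was shifted. On wildtype replicate 3 the genes of chromosome 6 lay a median of 0.40 above the other wildtype arrays, and on knockout replicate 1 the genes of chromosome 8 lay a median of -0.43 from the other knockout arrays, against -0.09 to 0.15 for all chromosomes other than 6 and 8 on any array. Of 10 markers of epiblast and pluripotent cells, 9 were detected on all arrays of both groups and Dnmt3a on none. Of 8 fibroblast markers 6, the collagen genes Col1a1, Col1a2 and Col3a1 among them, were detected on no array. The other 2, Thy1 and Dcn, were detected on all arrays of both groups. Of the 8 trophoblast markers 3 were detected on all knockout arrays and 4 on all wildtype arrays, as were 3 and 4 of the 7 naive markers. On intensities before normalization, on which the knockout arrays were dimmer as a whole, the sums over the 8 trophoblast markers were 1082 to 1128 in knockout and 1345 to 1990 in wildtype, with Elf5 and Hand1 detected on no array. Those of the 7 naive markers were 1323 to 1453 in knockout and 1763 to 3273 in wildtype, with Nr0b1 and Prdm14 detected on no array. The endoderm sums did not overlap either, at 1022 to 1379 in knockout and 1384 to 1633 in wildtype. Nor did the mesoderm sums, at 635 to 678 in knockout and 725 to 790 in wildtype. Sums of the epiblast, neural and fibroblast markers overlapped between the groups. After normalization 0 of 5 tested trophoblast markers and 0 of 4 tested naive markers passed the limma threshold, beside 13.7% of all genes. Of 9 tested epiblast markers 2 rose, beside 6.55% of all genes. Sets this small say little against those shares. The part of these markers in the Rab values was not tested, and in bulk RNA fewer cells with a transcript and less of it per cell cannot be told apart.

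Of the 54 Rab genes, 40 had a probe detected on at least 4 arrays and were tested. In knockout 5 fell: Rab15 of recycling endosomes, Rab7 and Rab9 of late endosomes, and Rab6a and Rab33b of the Golgi. One, Rab28, rose. These 6 genes are 15.0% of the 40, against 13.7% of all 8830 genes (6.55% rose and 7.17% fell), so the share of Rab genes past the threshold lay near that of the array as a whole. The largest change, that of Rab15, was -0.86, and 0 of 40 reached an absolute change of 1, which 1.74% of all genes did. Rab15, Rab7, Rab33b and Rab6a fell by more than 0.5 log2, 4 of the 40, beside 5.72% of all genes. The median change of the 40 was -0.07 and their median absolute change 0.28, beside 0.01 and 0.23 over all genes. Of the 40, 16 had an unadjusted limma p under 0.05, against 32.0% of all genes. The groups did not overlap for 10, of which 5 were lower and 5 higher in knockout, against 23.2% of all genes. The split between higher and lower depended on the scaling: with median scaling 0 rose and 20 fell (40.8% of all genes passed under that setting), and with no normalization between arrays 0 rose and 28 fell (65.3% of all genes). Under these settings the median change of all 8830 genes was itself -0.35 and -0.58. With median scaling over the probes detected on all arrays, added after seeing the data, it was 0.14, and 6 Rab genes rose and 5 fell (23.8% of all genes passed). Leaving out any single array gave between 1 and 8 Rab genes past the threshold. The share of all genes past the threshold moved too. The lowest count, 1, came without knockout replicate 2 (6.90% of all genes passed) or without wildtype replicate 4 (5.78%). A count of 3 came without knockout replicate 3 (6.41%) or 4 (7.44%) or without wildtype replicate 1 (6.91%) or 2 (6.33%). The highest, 8, came without wildtype replicate 3 (16.3%).

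**Figure D1:**
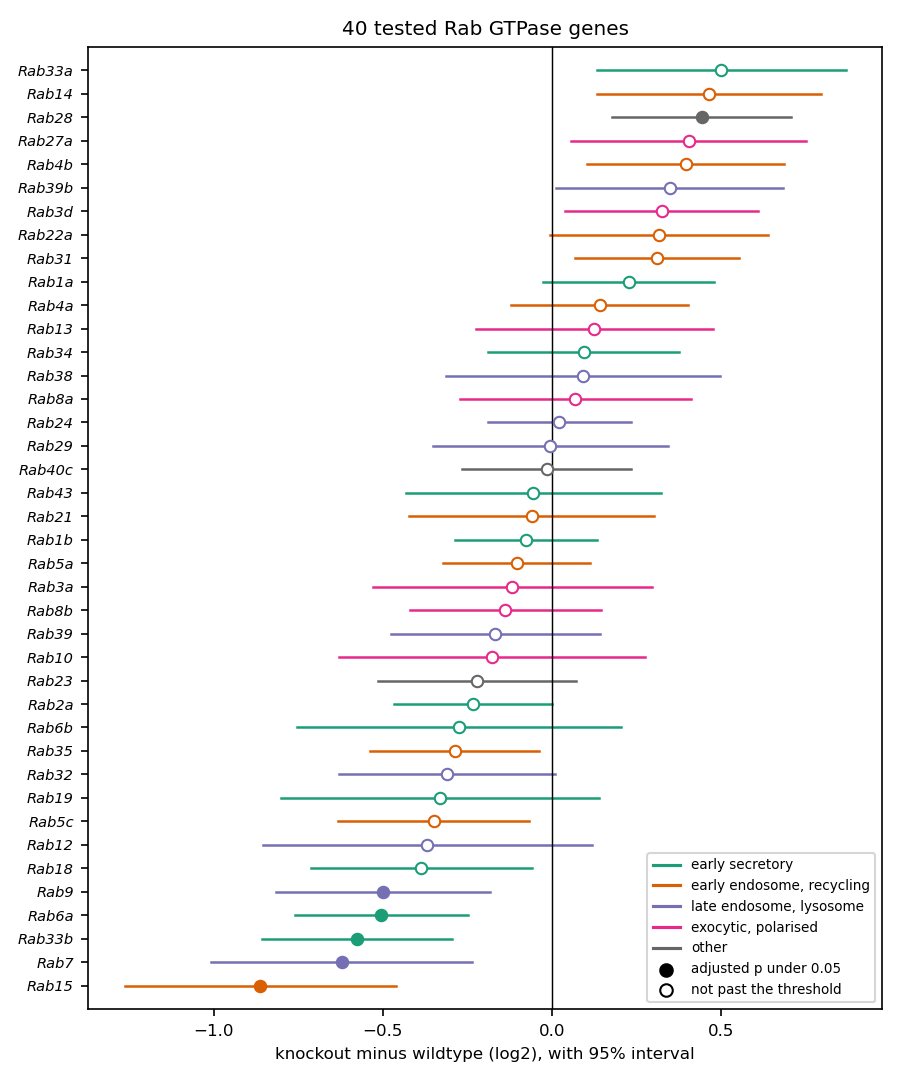
Change of the 40 tested Rab genes, knockout minus wildtype on the log2 scale (x axis), 1 row a gene in order of change; points are limma estimates from 4 arrays a group, lines their 95% intervals, colours the membranes at which each works, and filled points passed the threshold. The 5 filled points on the left are Rab15, Rab7, Rab33b, Rab6a and Rab9, and Rab28 is the filled point on the right.

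Promoter sequences from RefSeq (GRCm38.p6, 250 bases before to 50 after a transcription start) matched 44 of the 54 genes. Among the starts with a sequence, the one furthest upstream stood for a gene with several. CpG dinucleotides, which vertebrate genomes keep mainly at the starts of widely used genes, were counted and set against the number expected from the C and G content. That ratio had a median of 0.75 in the 6 Rab genes that changed and 0.80 in the 30 tested ones that did not pass the threshold. Over 13335 genes of the array, detected or not, it was 0.63. In the 8 genes whose signal was too low to test it was 0.57. It reached 0.6 in 5 of the 6 changed genes, in 26 of the 30 other tested genes and in 3 of the 8 untested ones, beside 52.9% of the 13335 genes. These are descriptions of the sequences, with no test. The stretches below are picked examples, each the 250 bases before the start used, 5′ to 3′, with every CG in capitals. The coordinates of the Rab15 gene (chr12:76797960-76822759) reach upstream of the start used, so most of its stretch lies within the gene. Those of Rab28 overlap the end of its stretch nearest the start. Rab17 had the lowest ratio of the 44 genes, 0.22. The groups overlapped, since Rab9, which changed, had 0.425 and Rab2b, not tested, had 0.867. Rab15 (chr12:76822525-76822774, minus strand, 27 CG) and Rab33b (chr3:51483716-51483965, plus strand, 23 CG) fell, Rab28 (chr5:41708180-41708429, minus strand, 12 CG) rose, and Rab17 (chr1:90967668-90967917, minus strand, 3 CG), a Rab of epithelial cells, was too dim to test.
Rab15: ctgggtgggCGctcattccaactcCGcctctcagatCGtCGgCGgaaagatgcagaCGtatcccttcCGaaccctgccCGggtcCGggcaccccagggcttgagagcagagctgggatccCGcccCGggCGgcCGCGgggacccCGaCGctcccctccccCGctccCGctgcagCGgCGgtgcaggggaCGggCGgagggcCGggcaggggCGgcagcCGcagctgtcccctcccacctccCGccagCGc
Rab33b: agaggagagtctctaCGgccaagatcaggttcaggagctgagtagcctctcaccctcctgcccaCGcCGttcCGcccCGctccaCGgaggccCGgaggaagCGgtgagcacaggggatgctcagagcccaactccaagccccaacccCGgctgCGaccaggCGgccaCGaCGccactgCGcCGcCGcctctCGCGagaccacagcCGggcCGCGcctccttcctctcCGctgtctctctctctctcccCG
Rab28: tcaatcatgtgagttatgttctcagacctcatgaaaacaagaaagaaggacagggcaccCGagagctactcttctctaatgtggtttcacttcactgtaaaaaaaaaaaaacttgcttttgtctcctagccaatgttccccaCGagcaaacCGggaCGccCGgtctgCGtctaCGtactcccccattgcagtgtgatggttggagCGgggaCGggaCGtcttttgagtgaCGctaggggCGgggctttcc
Rab17: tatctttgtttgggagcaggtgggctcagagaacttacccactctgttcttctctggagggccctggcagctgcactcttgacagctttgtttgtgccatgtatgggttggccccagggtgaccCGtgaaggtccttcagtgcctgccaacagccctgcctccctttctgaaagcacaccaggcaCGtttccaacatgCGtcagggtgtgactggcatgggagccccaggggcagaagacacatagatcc

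**Figure D2:**
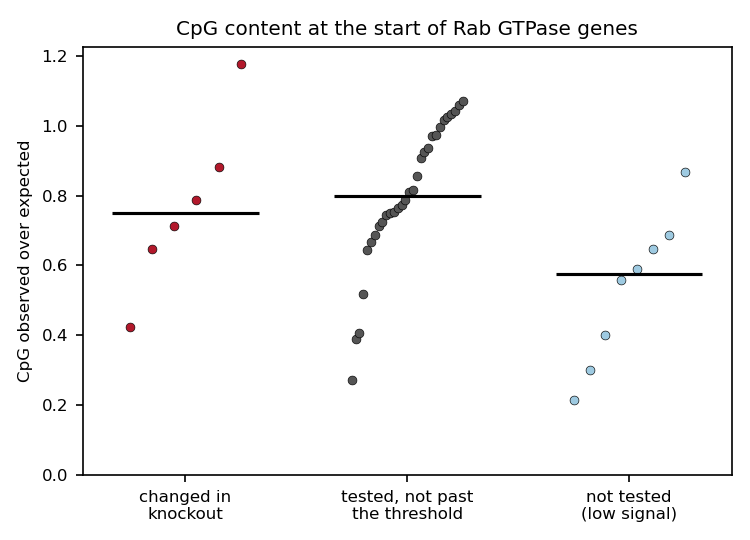
CpG observed over expected (y axis) in the 300 bases around the start of 44 Rab genes, in 3 columns: 6 genes that changed in knockout, 30 tested genes not past the threshold and 8 not tested; each point is a gene and the bar is the median. The bars lie at 0.75, 0.80 and 0.57, and the lowest point is Rab17 at 0.22.

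The grainyhead family is known to bind the palindrome AACCGGTT and variants of it. The same RefSeq sequences were searched on both strands, with all starts of a gene, for AACCGGTT, for AACCNGTT and for AACNNGTT, each form holding the one before it. The forms were settled after matches had been seen. None of the 44 Rab genes held any of them, beside 0.23%, 2.26% and 4.48% of 13335 genes of the array, and this says nothing of sites elsewhere. Rab25, of the class left out, held 1 match to the broader forms, which began 102 bases before the start (-102). Its 250 bases (GRCm38.p6, chr3:88548280-88548529, minus strand) are printed with the match in capitals.
Rab25: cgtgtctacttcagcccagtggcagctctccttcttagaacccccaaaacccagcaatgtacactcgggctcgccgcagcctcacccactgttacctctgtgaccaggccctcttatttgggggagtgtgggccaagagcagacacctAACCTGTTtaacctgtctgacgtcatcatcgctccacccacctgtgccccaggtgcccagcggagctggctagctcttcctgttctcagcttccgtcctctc

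Rabs of early and recycling endosomes receive cargo from the plasma membrane and send it back. Of 10 tested, 1 fell and 0 rose, beside 7.17% and 6.55% of all genes. Rab15 (Entrez gene 104886, chr12:76797960-76822759), which slows the return of internalised receptors through the recycling endosome, measured 9.62, 9.95, 9.82 and 10.05 on the 4 knockout arrays, against 10.52, 10.56, 11.26 and 10.55 on the wildtype arrays. All knockout arrays lay below all wildtype arrays, and wildtype replicate 3 stood above the rest of its group. Knockout held 55.0% of the wildtype level, a change of -0.86 (SE 0.18, limma adjusted p = 0.0172). The call was kept without each array in turn, with adjusted p between 0.0127 and 0.0449 and changes between -0.93 and -0.68, and the change was -0.60 without both arrays that stood apart (adjusted p = 0.0109). One probe read this gene, with 33 to 50 beads an array.

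The other endosomal Rabs did not pass the threshold, and they pointed both ways. Rab14, which works between the Golgi and early endosomes, measured 10.35, 10.36, 10.28 and 10.42 in knockout and 9.51, 9.79, 10.11 and 10.15 in wildtype. The groups did not overlap, but the wildtype spread left it at 0.46 (limma adjusted p = 0.0641). Rab4b, of rapid recycling, had a change of 0.39 (adjusted p = 0.0714) and Rab31, a relative of Rab5, one of 0.31 (adjusted p = 0.0828), both with knockout above wildtype on all arrays. Rab5c, which with its paralogs drives the fusion of early endosomes, had a change of -0.35 (adjusted p = 0.0891) with knockout below wildtype on all arrays. These genes are named beyond the rule, after their values were seen, because their groups did not overlap. Rab5a had -0.11, with a 95% interval of -0.32 to 0.11. The remaining 4 were Rab22a, a Rab of early endosomes, at 0.31, Rab4a at 0.14, Rab21, which accompanies integrins, at -0.06, and Rab35, a Rab of endocytic recycling, at -0.29.

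Rabs of late endosomes, lysosomes and related organelles hand cargo on for degradation or back to the Golgi. Of 9 tested, 2 fell and 0 rose, beside 7.17% and 6.55% of all genes. Rab7 (Entrez gene 19349, chr6:87999106-88045270), which drives the fusion of late endosomes with lysosomes, measured 9.87, 10.56, 10.60 and 10.55 in knockout, against 11.03, 10.87, 11.23 and 10.95 in wildtype. The groups did not overlap, and knockout replicate 1 lay well below the other 3 of its group. The change was -0.62 (SE 0.17, limma adjusted p = 0.0424) and knockout held 65.0% of the wildtype level. The gene lies on chromosome 6, where the genes of wildtype replicate 3 lay a median of 0.40 above the other wildtype arrays and those of knockout replicate 1, the array lowest for Rab7, a median of -0.16 from the other knockout arrays. Without wildtype replicate 3 and knockout replicate 1 the change was -0.38 and still past the threshold (adjusted p = 0.0385). The call was lost without any single array other than knockout replicate 1, with adjusted p up to 0.0893.

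Rab9 (Entrez gene 56382, chrX:166457251-166479867), which carries receptors from late endosomes back to the Golgi, measured 8.08, 8.002, 7.82 and 7.76 in knockout, against 8.57, 8.49, 8.05 and 8.55 in wildtype. The groups overlapped by 1 array, since wildtype replicate 3 lay below knockout replicate 1. The change was -0.50 (SE 0.14, limma adjusted p = 0.0453). It was -0.62 without wildtype replicate 3 (adjusted p = 0.0138), and the call was lost without knockout replicate 2, 3 or 4 or wildtype replicate 1, 2 or 4, with adjusted p up to 0.113. Rab24 and Rab29 were among the 4 tested genes with the smallest changes. Rab24, a Rab linked to autophagy, measured 9.79, 9.75, 9.67 and 9.80 in knockout and 9.71, 9.84, 9.66 and 9.72 in wildtype. The arrays of the groups were interleaved, and the change of 0.02 had a 95% interval of -0.19 to 0.23. Rab29, a partner of the kinase LRRK2 in human cells, measured 6.002, 6.10, 6.66 and 6.10 in knockout and 6.03, 6.30, 6.33 and 6.23 in wildtype, a change of -0.01 with an interval of -0.35 to 0.34. The other 5 of this group lay between -0.37 for Rab12 and 0.35 for Rab39b.

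Rabs of the early secretory route serve traffic between the endoplasmic reticulum and the Golgi and within the Golgi. Of 11 tested, 2 fell and 0 rose, beside 7.17% and 6.55% of all genes. Of the 11 changes 8 were below 0, beside 24 of the 40 tested Rabs and 4291 of all 8830 genes. The split between higher and lower depended on the scaling, as given above. Rab33b (Entrez gene 19338, chr3:51483966-51496228), a Golgi Rab that also binds the autophagy protein ATG16L1, measured 7.08, 6.92, 7.05 and 6.71 in knockout, against 7.76, 7.45, 7.40 and 7.47 in wildtype. The groups did not overlap, and knockout held 67.1% of the wildtype level (change -0.58, SE 0.13, limma adjusted p = 0.0202). The call was lost by a narrow margin without knockout replicate 2 (adjusted p = 0.0519) or wildtype replicate 4 (0.0505). On the authors' deposited normalized values, which show no background correction, the same probe had a change of -0.32 and was past the threshold (adjusted p = 0.0171).

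Rab6a (Entrez gene 19346, chr7:100607575-100641268), which directs vesicles from endosomes to the Golgi and through it, measured 8.08, 7.94, 8.08 and 7.88 in knockout, against 8.70, 8.51, 8.31 and 8.48 in wildtype. All knockout arrays lay below all wildtype arrays. The change was -0.51 (SE 0.11, limma adjusted p = 0.0220), with a loss of the call without knockout replicate 2 or 4 or wildtype replicate 2 or 4 (adjusted p up to 0.0599). Rab33a, the X-linked relative of Rab33b, pointed the other way and did not pass: it measured 6.30, 6.59, 6.81 and 6.40 in knockout and 5.95, 6.43, 5.82 and 5.88 in wildtype, with overlap at wildtype replicate 2 (change 0.50, adjusted p = 0.0702). It is named beyond the rule as the largest positive change of the family. Rab43, a Golgi Rab detected on 2 arrays of each group, measured 5.08, 4.81, 5.11 and 4.96 in knockout and 4.82, 5.52, 5.08 and 4.76 in wildtype, a change of -0.06 with an interval of -0.43 to 0.32. Rab18, of lipid droplets, had -0.39 (adjusted p = 0.102) and Rab2a, of the Golgi, -0.23 (adjusted p = 0.158). Rab1b, of the step from the endoplasmic reticulum to the Golgi, had -0.08, with an interval of -0.29 to 0.13.

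Rabs of exocytosis and polarised delivery carry vesicles to the plasma membrane, and this set holds Rab8a, Rab10 and Rab13, which are known for traffic in epithelial cells. Of 7 tested, 0 passed the limma threshold in either direction, beside 13.7% of all genes. An unadjusted limma p under 0.05 was found for 2 of the 7, beside 32.0% of all genes. Rab8a measured 11.04, 11.48, 11.52 and 11.57 in knockout and 11.14, 11.36, 11.63 and 11.22 in wildtype, with the groups interleaved. Its change was 0.07, with a 95% interval of -0.27 to 0.41. It lies on chromosome 8, where knockout replicate 1 stood apart from the other knockout arrays. Without that array and wildtype replicate 3 the change was 0.28 (adjusted p = 0.0959). Which of the knockout arrays were shifted there is not known, so neither value is a corrected one. Rab10 had a change of -0.18 (interval -0.63 to 0.28) and Rab13, a Rab of tight junction traffic, one of 0.12 (interval -0.23 to 0.48). Rab27a, of secretory granules and melanosomes, was higher on all knockout arrays, by 0.40, and did not pass (adjusted p = 0.107). Of the other members on chromosomes 6 and 8, Rab4a had 0.14 with all arrays and 0.26 without both arrays that stood apart, Rab19 had -0.33 and -0.44, and Rab3a had -0.12 and -0.10, and none of these passed with either set of arrays.

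Outside these groups, 3 further Rabs were tested and 1 rose, beside 6.55% of all genes. Rab28 (Entrez gene 100972, chr5:41624973-41708193), a Rab of the primary cilium, measured 11.67, 11.45, 11.63 and 11.29 in knockout, against 10.94, 11.15, 11.17 and 11.02 in wildtype. All knockout arrays lay above all wildtype arrays, at 1.36 times the wildtype level (change 0.44, SE 0.12, limma adjusted p = 0.0374). The change was 0.03 with median scaling and -0.20 with no normalization between arrays, both without a call, and 0.51 with median scaling over the probes detected on all arrays (adjusted p = 0.0179). Relative to the median change of all genes it was 0.43 with quantile normalization and 0.38 under each of the other 3. The call was lost without knockout replicate 1, 2 or 3 or wildtype replicate 1, 2 or 4 (adjusted p up to 0.0937). Rab40c, which joins a ubiquitin ligase, measured 10.50, 10.36, 10.35 and 10.23 in knockout and 10.21, 10.34, 10.41 and 10.54 in wildtype, a change of -0.02 with an interval of -0.27 to 0.23. Rab23, an inhibitor of Hedgehog signalling in the mouse, had -0.22 (interval -0.52 to 0.07).

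**Figure D3:**
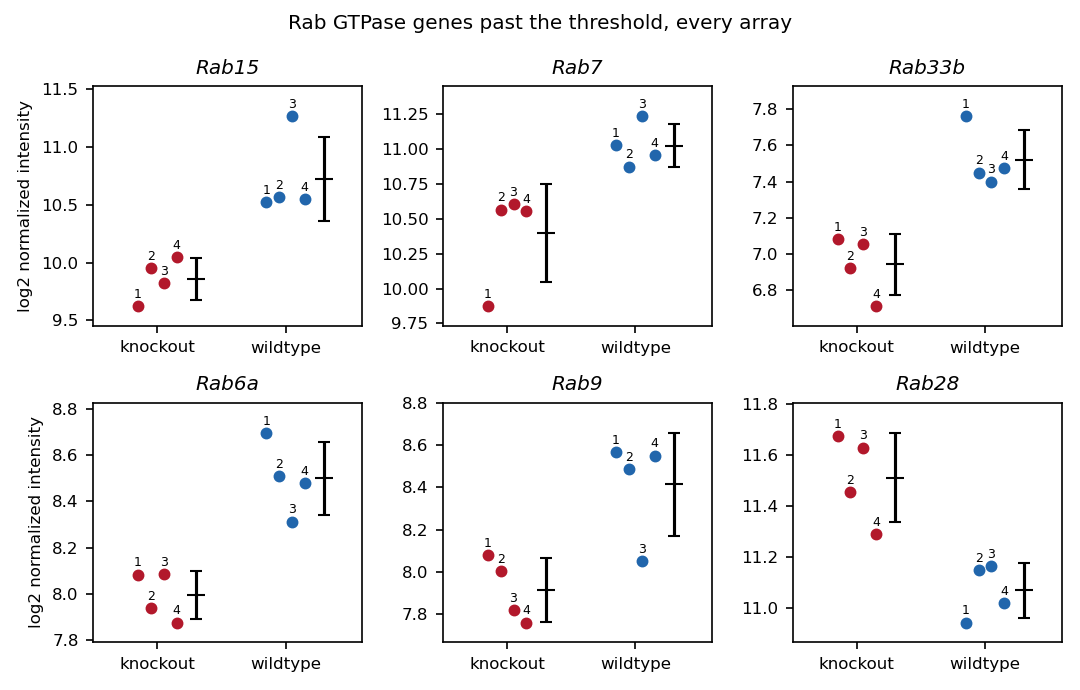
Log2 normalized intensity (y axes, each with its own range that does not start at 0) of the 6 Rab genes past the threshold, on the 4 knockout arrays and the 4 wildtype arrays; numbers are replicates, bars the mean and SD. Knockout lies wholly below wildtype for Rab15, Rab7, Rab33b and Rab6a, the groups overlap for Rab9, and knockout lies wholly above wildtype for Rab28.

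Several probes read some of these genes, and they did not give 1 answer. Of the 40 tested genes 14 had more than 1 retained probe, and in 6 of the 14 (42.9%) the probes differed in sign, beside 41.8% of 2294 such genes on the array. All 4 of the changed genes with several retained probes, Rab28, Rab6a, Rab7 and Rab9, were among them, while 20.1% of the 314 genes of this kind past the threshold on the whole array were. The other probes of Rab7 had changes of 0.36 and 0.26 (limma adjusted p = 0.486 and 0.596 over 12790 retained probes) where the probe that stood for the gene had -0.62. The second probe of Rab9 had 0.23 (adjusted p = 0.225) against -0.50, and mean levels of the 2 probes over all arrays were 8.15 and 8.16, so the choice by highest mean turned on a narrow margin. The second probe of Rab28 had -0.11 (adjusted p = 0.674) against 0.44. For Rab6a the other probes had -0.28 and 0.16 (adjusted p = 0.402 and 0.304) against -0.51, with intensities of 131 to 202 and 139 to 173 against 255 to 653 for the probe that stood for the gene.

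Set against the probe that stood for the gene, the difference of changes was 0.55 for Rab28 and, in the order above, -0.22 and -0.66 for Rab6a. It was -0.98 and -0.88 for Rab7 and -0.72 for Rab9. These are given as a description, with no test, because the genes were picked after their probes had been seen to differ. When the retained probes of a gene were averaged, Rab15 and Rab33b, each with 1 retained probe, were the Rab genes past the threshold. The transcripts or exons that each probe reads are not given in the sources used here. Rab34, a Rab of the Golgi and cilium, ran the other way round: the probe that stood for it had 0.09 (adjusted p = 0.659 over probes), while a second one had 0.56 (adjusted p = 0.0326), with 9.78, 9.82, 9.78 and 9.83 in knockout and 8.85, 9.43, 9.23 and 9.46 in wildtype. With every retained probe as a feature, 7 of 58 Rab probes passed, 2 higher and 5 lower in knockout, beside 13.0% of all 12790 probes.

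**Figure D4:**
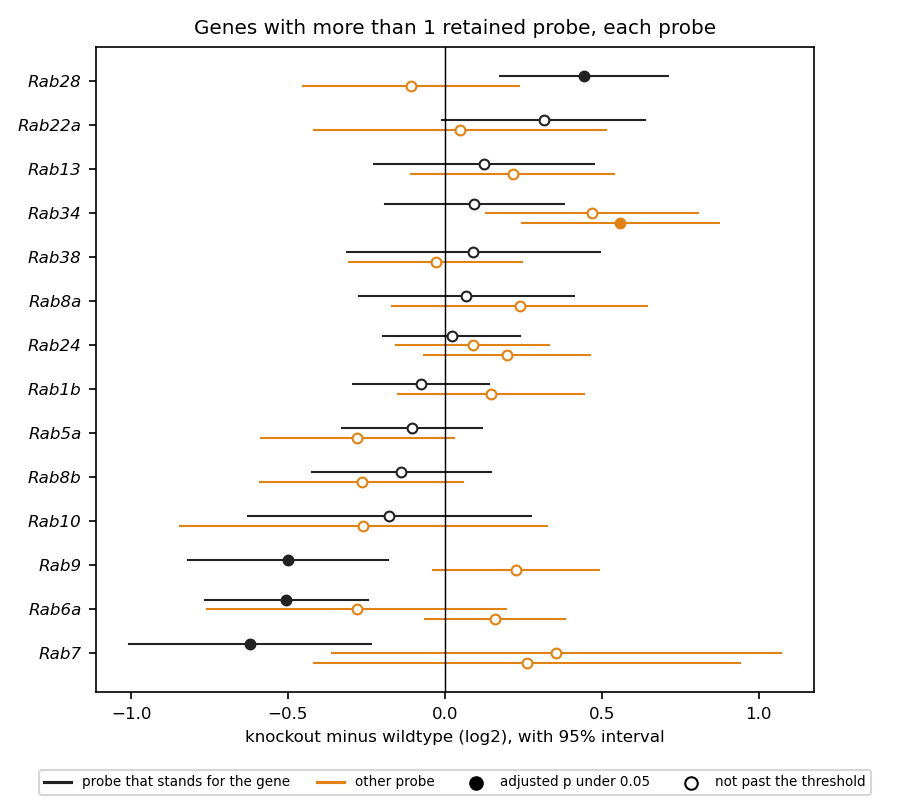
Change, knockout minus wildtype on the log2 scale (x axis), of each retained probe of the 14 Rab genes with more than 1; lines are 95% intervals, black the probe that stands for the gene, orange the others, filled points past the threshold. For Rab28, Rab9, Rab6a and Rab7 the filled black point lies on the other side of 0 from at least 1 orange point.

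The other 14 Rab genes, read by 19 probes, did not have a probe detected on at least 4 arrays and were not tested. Their probes had intensities of 109 to 182 on all arrays, and 7 of the 14 genes were detected on no array: Rab2b, Rab3c, Rab7b, Rab9b, Rab27b, Rab30 and Rab44. Rab17, which sorts cargo in the apical recycling endosome of epithelial cells, was detected on 0 knockout arrays and 1 wildtype array, with intensities of at most 135 in knockout and 165 in wildtype. Rab42 was detected on 3 knockout arrays and no wildtype array. Its brighter probe measured 5.14, 5.05, 5.39 and 4.97 in knockout and 4.81, 4.91, 4.81 and 4.86 in wildtype after normalization, while the intensities before it were 132.5 to 147.1 in knockout and 150.4 to 162.3 in wildtype. The order of the groups was thus opposite before and after normalization.

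The Rab11 class works at the recycling endosome and in apical delivery. Rab25, its epithelial member, measured 4.52, 4.63, 4.62 and 4.91 in knockout, where it was detected on no array, against 7.18, 7.004, 7.12 and 6.98 in wildtype. On these background-corrected values it was at least 4.19-fold lower in knockout (limma adjusted p = 1.51e-05). On the authors' deposited normalized values, which show no background correction, the change of Rab25 was smaller, at -0.83 (limma adjusted p = 0.000184). Rab11a measured 6.17, 5.79, 5.77 and 6.19 in knockout, against 6.38, 6.61, 6.42 and 6.75 in wildtype, a change of -0.56 (adjusted p = 0.0331) that lost its call without knockout replicate 2 or 3 or wildtype replicate 2 or 4 (adjusted p up to 0.0877). Rab11b had a change of -0.08, with an interval of -0.31 to 0.14. Beside these, the 40 tested Rabs spanned -0.86 to 0.50.

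The proteins that load, unload, carry and read Rabs were taken as 4 lists, of which 115 genes were on the array and 89 tested. Of the 89, 10 (11.2%, beside 13.7% of all genes) passed the threshold: 3 rose and 7 fell. With median scaling 0 rose and 32 fell, where 40.8% of all genes passed. Among 31 exchange factors, Dennd6a, an exchange factor of Rab14 in human cells, rose by 0.41 (SE 0.10, limma adjusted p = 0.0335), Trappc2, a subunit of the TRAPP tether, fell by 0.47 (adjusted p = 0.0304) and Dennd1c fell by 0.42 with groups that overlapped (adjusted p = 0.0491). On the authors' deposited normalized values these changes were 0.10 for Dennd6a (adjusted p = 0.208) and -0.11 for Dennd1c (adjusted p = 0.193), and neither passed. Among 23 tested genes of the list of GTPase-activating proteins, which was not checked for activity, 2 fell and 0 rose. Tbc1d23, a trans-Golgi protein that bridges endosome-derived vesicles to golgins, was 7.33 ± 0.11 in knockout and 8.11 ± 0.09 in wildtype (SD, n = 4 each), 1.72-fold lower in knockout (adjusted p = 0.00338), and Tbc1d9 fell by 0.60 (adjusted p = 0.0261), with -0.15 and no call when its retained probes were averaged (adjusted p = 0.51). Of 6 carriers and prenylation factors 0 passed with limma, and 2 had an unadjusted p under 0.05, beside 32.0% of all genes.

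Of 29 effectors 2 rose and 3 fell, beside 6.55% and 7.17% of all genes. Gcc2, a golgin of the trans-Golgi that binds Rab6 and Rab9, was 8.07 ± 0.22 in knockout and 8.78 ± 0.30 in wildtype (SD, n = 4 each; change -0.71, limma adjusted p = 0.0264). Rabep2, a relative of the Rab5 effector rabaptin, was 7.45 ± 0.09 in knockout and 6.84 ± 0.10 in wildtype (SD, n = 4 each; change 0.61, adjusted p = 0.00887). Uso1, the Rab1 effector that tethers vesicles at the Golgi, rose by 0.56 (adjusted p = 0.0184), and Plekhm1, a Rab7 effector at lysosomes, fell by 0.44 (adjusted p = 0.0351). The fifth, Bicd2, which links Rab6 vesicles to dynein, fell by 0.41 (adjusted p = 0.0461) and is named beyond the rule. With no normalization between arrays the changes were -0.04 for Rabep2 and -0.15 for Uso1, which were 0.53 and 0.43 above the median of all genes under that setting. Tbc1d23 and Rabep2 kept their calls without each array in turn. Each of the other 8 lost its call without at least 1 array, most of them without knockout replicate 2, 3 or 4 or wildtype replicate 4. The count over the 89 genes was 2 without wildtype replicate 4 (5.78% of all genes passed) and 3 without knockout replicate 4 (7.44%). It was 4 without knockout replicate 2 (6.90%), knockout replicate 3 (6.41%) or wildtype replicate 2 (6.33%), and 6 without wildtype replicate 1 (6.91%). The share of all genes thus fell as well.

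The authors' deposited table of the same comparison called 12 of the 84 Rab probes at the same threshold, with positive fold changes for 3 and negative ones for 9, beside 8.62% of all its probes. Among the 40 probes that stood for tested genes the authors' deposited table called 11, beside 18.2% of the 8830 standing probes, and the 6 called here were all among the 11. In the authors' deposited table the largest fold change of a Rab probe was that of Rab15, at -0.71 (adjusted p = 0.0138). The authors' deposited table also called Rab2a (-0.27, adjusted p = 0.0225), Rab35 (-0.32, 0.0278), Rab5c (-0.34, 0.0382), Rab18 (-0.37, 0.0465) and Rab31 (0.27, 0.0343), all of which missed the threshold here.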

How the data were processed

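The authors deposited a probe profile that, per the file headers, held for each of 25697 Illumina probes the mean bead intensity, its bead standard error, the number of beads (a count) and a detection p-value on each of 8 arrays. The deposited table of log2 values equalled log2 intensity after quantile normalization and without background correction (differences of at most 4.97e-14). Per the file headers, the authors' comparison table held log2 fold changes, moderated scores (t and log odds), p-values and adjusted p-values. The submitters' processing notes name limma. Background steps and the scanner software are not given in the sources used here.

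The neqc function of limma (version 3.58.1, R 4.3.3) corrected the intensities, with an offset of 16 and the background estimated through detection p-values, and quantile normalized them. A probe was retained where 4 or more arrays detected it at p under 0.05 (12790 probes), and the probe with the highest mean stood for a gene (8830 genes). Symbols came from the platform annotation, and 0 of them changed through Entrez identifiers in the RefSeq table of GRCm38.p6, which gave the coordinates. The 2 genotypes were compared with lmFit and eBayes, two-sided, with Benjamini-Hochberg adjustment. The fit was tested on simulated data. Rab25 was bounded against the lowest detected intensity of each array. The members and lists were chosen with earlier results of these data known. Named genes were the members past the threshold, those detected on no array of one group and at least 3 of the other, the 4 smallest changes, and up to 4 changed genes of each pathway list. The number of arrays limits the precision, and no slide label was given for a block. Alternatives covered background, normalization, filter, probe choice, weights, moderation, block, threshold and single arrays.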

Additional observations from a re-analysis of the deposited data

Results flagged for a closer look

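In 10 of 88 groups of 4 arrays checked, 1 array lay far from the other 3 by Dixon's ratio at its 95% critical value, where chance gives about 1 in 20. Wildtype replicate 3 was that array for Rab15, at 11.26 against 10.52 to 10.56, for Rab9, at 8.05 against 8.49 to 8.57, and for Rab32, at 7.97 against 8.39 to 8.46. Knockout replicate 1 was that array for Rab7, at 9.87 (9.875) against 10.55 to 10.60, for Rab8a, at 11.04 against 11.48 to 11.57, for Rab35, at 11.19 against 10.91 to 10.94, for Rab2a, at 12.24 against 11.97 to 11.99, and for Rab34, at 10.09 against 9.68 to 9.74. Knockout replicate 4 was high for Rab21, at 7.40 against 6.76 to 6.86, and knockout replicate 3 was high for Rab29, at 6.66 against 6.002 to 6.105. Wildtype replicate 3 and knockout replicate 1 thus account for 8 of the 10, and they are the arrays that stood apart by chromosome within their group. Most of these genes lie on other chromosomes than 6 and 8: Rab15 on 12, Rab9 on X, Rab32 on 10, Rab35 on 5, Rab2a on 4 and Rab34 on 11. Medians on chromosomes other than 6 and 8 ran from -0.09 to 0.15 on any array. Rab8a lies on chromosome 8, where knockout replicate 1 lay a median of -0.43 from the other knockout arrays. Rab7 lies on chromosome 6, where the same array lay at -0.16. The part of these chromosome differences in the values was not tested.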

How the results depend on the processing

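The 6 Rab genes past the threshold (13.7% of all genes passed) became 20 with median scaling (40.8%), 28 with no normalization between arrays (65.3%), 13 with array weights (24.6%), and 2 with the mean of the retained probes (13.2%). The 10 pathway genes became 32, 61 and 18 under the first 3 of these settings. Without each array in turn the counts ran from 1 to 8 for Rab genes, from 2 to 9 for pathway genes and from 1 to 8 for the 7 Rab probes, with 5.78% to 16.3% of all genes. At a threshold of 0.01 limma called 0 Rab genes (1.89% of all genes), with 16 at an unadjusted p under 0.05, and 2 pathway genes. With the clone number as a replicate block, which does not pair the samples (deviations of arrays with the same number correlated between -0.08 and 0.05), 2 Rab genes, 4 pathway genes and 2 Rab probes passed (7.60% of all genes). Chosen after seeing the data, median scaling over probes detected on all arrays gave 11 Rab genes, 6 higher and 5 lower, and 20 pathway genes (23.8% of all genes). With array brightness in the limma fit, also chosen after seeing the data, 0 Rab genes and 0 pathway genes passed (0.181% of all genes), with 6 and 12 at an unadjusted p under 0.05. The groups did not overlap in brightness, so brightness and genotype cannot be told apart. The count stayed within 1.5 times the main value under the other background, filter, moderation and deposited-value settings. Among the 6 Rab genes, Rab28, Rab6a, Rab7 and Rab9 lost their calls with the replicate block and with the mean of the retained probes, Rab28 with median scaling, with no normalization between arrays and without both arrays that stood apart, Rab7 and Rab9 with no detection filter, Rab9 with detection on at least 1 array, and all 6 with brightness in the fit. The sign turned for Rab28 (-0.20), Rabep2 (-0.0443) and Uso1 (-0.15) with no normalization between arrays, and for Rab9 with brightness in the fit (0.0397). Rab24 turned with median scaling (-0.46) and with no normalization between arrays (-0.69). Those 2 scalings moved the median of all genes to -0.35 and -0.58, and relative to it Rab28, Rabep2 and Uso1 stayed higher in knockout while Rab24 lay at -0.11. Where no construction of the setting shows it, the cause was not tested.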
